A study of Mus musculus with 10 samples.

Results

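Fatty acid oxidation, peroxisomes and ketone body metabolism were described through 32 genes, matched by symbol among the 24525 genes of an RNA sequencing table from mouse colon. All 32 were in the table. They were 3 acyl-CoA synthetases, 3 carnitine acyltransferases, 4 mitochondrial acyl-CoA dehydrogenases, 3 genes of the electron transfer flavoprotein system and 5 genes of the later mitochondrial steps. The remaining genes were 4 isomerases and reductases for unsaturated chains, 8 peroxisomal genes and 2 ketone body enzymes. The libraries came from 5 colon tumours and 5 samples of adjacent colon of male C57BL/6 mice, given as C57BL/6N in the protocol. Mice of 7 weeks received azoxymethane, a mutagen, once at 12.5 mg/kg. From 1 week later they went through 3 cycles of 3 weeks, each with 2% dextran sulfate sodium, which injures the colonic epithelium, for 5 days and water for 16 days. Tumour and adjacent tissue were both taken 10 weeks after azoxymethane. The adjacent samples had therefore seen the same mutagen and colitis, and no library was labelled as coming from an untreated mouse. All 10 libraries carry the same mouse in their source label, and whether any came from separate animals cannot be read from it. The p-values therefore measure only the spread between these libraries, and that spread may be technical.

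Fatty acids are activated to acyl-CoA, carried into mitochondria as carnitine esters and shortened in a repeated cycle of dehydrogenation, hydration, a second dehydrogenation and thiolysis. Peroxisomes run a parallel cycle on very long and branched chains and also hold oxidases of hydroxy acids. Ketone body enzymes interconvert acetyl-CoA, acetoacetate and 3-hydroxybutyrate. Colonocytes, the absorptive cells of the colonic surface, are known for using butyrate from bacterial fermentation as a main fuel, and peroxisome proliferator-activated receptors (PPARs) are known activators of many genes of these pathways.

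Short sequences upstream of the genes are shown for what the DNA of the set holds near its start sites. Hadha and Hadhb, which encode both subunits of the mitochondrial trifunctional protein, lie head to head on mouse chromosome 5. Hadha occupies chr5:30118304-30155162 on the minus strand and Hadhb chr5:30155248-30184593 on the plus strand. The 85 bases between them (chr5:30155163-30155247, plus strand, GRCm38.p6, from RefSeq) are printed whole because the genes start on either side of them.
Hadha to Hadhb: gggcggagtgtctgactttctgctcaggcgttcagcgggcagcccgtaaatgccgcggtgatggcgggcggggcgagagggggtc
PPARs bind a direct repeat of AGGTCA with 1 base between the copies. With up to 2 of its 12 fixed letters mismatched and on either strand, such a repeat was sought within 250 bases before each start. It was found in 2 of the 30 RefSeq promoters of 27 members (6.67%), against 1057 of 32536 distinct promoters (3.25%). The 2 stretches follow because they hold the only such matches among these 30 promoters, each 41 bases on its gene's own strand, with the match in capitals. The Echs1 stretch is at chr7:140116478-140116518 and that of Etfa at chr9:55512294-55512334, both on the minus strand of GRCm38.p6. The Etfa match reads on the opposite strand.
Echs1: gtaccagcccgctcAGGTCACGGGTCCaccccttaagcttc
Etfa: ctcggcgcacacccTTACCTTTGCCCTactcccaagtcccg
The exact letters AGGTCA alone stood in 4 of the 30 promoters (13.3%), those of Acadm, Acadvl, Cpt1a and Echs1, and in 14% of all distinct promoters. These are letter matches and no binding was measured.

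Expression was given as FPKM, fragments scaled to transcript length and to the mapped total, with total FPKM of 462009 to 484712 per library and a rough depth of 20800000 to 26300000 fragments. Genes were tested with limma on log2(FPKM + 1), and a change is tumour minus adjacent on that scale, which understates the change of low genes. The words rose and fell are used where a gene's adjusted p, by the Benjamini-Hochberg method over all 13016 genes tested, was at most 0.05. The median change of all tested genes was 0.35, so most genes stood higher in tumours before any member is considered. Pan-epithelial markers such as Epcam and Cdh1 were detected in all libraries, with a summed level of 5281.7 to 7681.6 FPKM in tumours and 9167.6 to 10929 FPKM in adjacent samples. Of these 18 markers 14 fell and 2 rose. Markers of surface colonocytes, of which 13 of 14 tested fell and only Slc51a was at 0 in any library, summed to 439.47 to 2054.6 FPKM in tumours and 6086.1 to 7917 FPKM in adjacent samples. Goblet cell markers, all 8 of which fell, summed to 1468.9 to 4326.8 FPKM in tumours and 15208 to 18614 FPKM in adjacent samples. Fibroblast markers, all 8 of which rose, summed to 620.45 to 1036.9 FPKM in tumours and 89.25 to 220.29 FPKM in adjacent samples, and macrophage markers to 580.61 to 1007.5 FPKM in tumours and 92.98 to 284.64 FPKM in adjacent samples. In bulk tissue, fewer cells of a type and less RNA per cell cannot be told apart.

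Most of the 32 genes were lower in tumours, and their summed level was lower in every tumour than in every adjacent sample. The sum was 972.53 to 1062.6 FPKM in tumours and 1417.4 to 1819 FPKM in adjacent samples. Of the 31 members with a mean of at least 1 FPKM, 23 fell, 5 rose and 3 did not pass the test. Over all tested genes 76.5% passed, as 19.3% fell and 57.2% rose. The members' median change was -0.59, and 29 of the 31 lay below the 0.35 median of all genes. Groups did not overlap for 22 members that were lower in tumours, against 14.3% of all genes, and for 1 member that was higher, against 46.5% of all genes (60.9% in either direction). A fall of at least 2-fold was seen for Hao2, Ehhadh, Pex11a, Hadh, Bdh1 and Cpt1a, which is 6 of 31 against 7.09% of all genes. Epithelial, surface colonocyte and goblet markers were lower in the same tumours, and their part in these falls was not tested.

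The split between falls and rises depended on the scaling, and 10 members fell under every one of the 19 alternatives run. With each library's median subtracted, 26 members fell and 0 rose by limma's adjusted p (1 rose at an unadjusted p under 0.05), against 33.3% of all genes falling and 34.5% rising, 67.7% together. The additional falls were those of Cpt2, Acadl and Eci1. After quantile normalization 23 fell and 1 rose, against 30.2% and 36.6% of all genes, 66.8% together. Measured relative to the mean of the 18 pan-epithelial markers, 10 fell, 9 rose and 12 did not pass, against 9.35% falling and 77.6% rising of all genes, 86.9% together. The members that fell under all alternatives were Hao2, Ehhadh, Pex11a, Hadh, Bdh1, Cpt1a, Acadm, Acaa2, Acat1 and Hadhb. They were the same 10 that fell relative to the epithelial markers, where 9.35% of all genes fell. The share of all genes that fell under every alternative was not computed. No member rose under all alternatives. Relative to the epithelial markers, the 9 that rose were Acsl1, Acsl5, Cpt2, Acadl, Eci1, Eci2, Acox2, Acox3 and Hsd17b4.

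**Figure D1:**
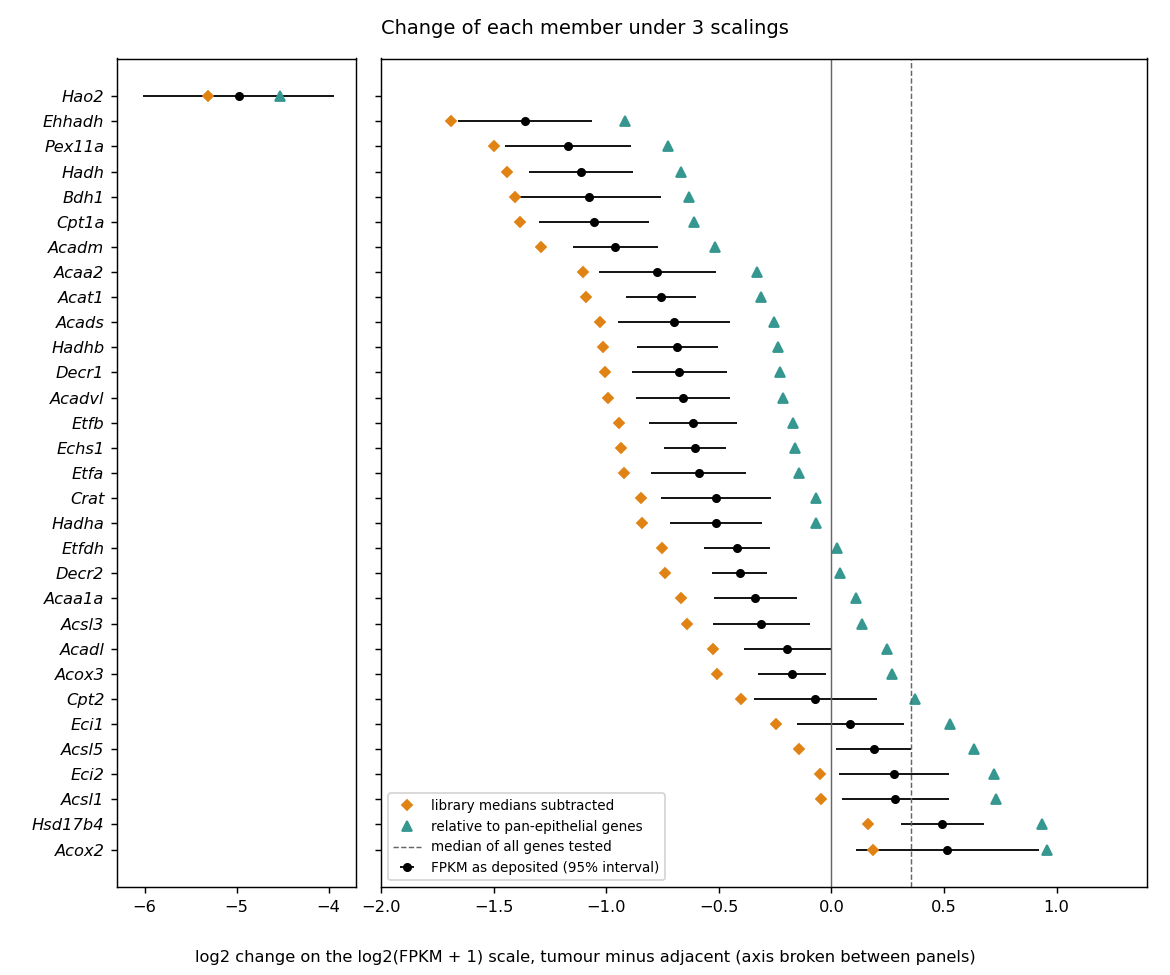
The plot gives each tested member's change, tumour minus adjacent, on the log2(FPKM + 1) scale, as black points with 95% intervals for FPKM as deposited, orange diamonds with library medians subtracted and green triangles relative to the pan-epithelial markers, with a dashed line at the median of all genes. Hao2, on its own stretch of the broken axis, lies at -4.98, and the black points of 29 of the 31 members lie left of the dashed line.

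The acyl-CoA synthetases, which activate long-chain fatty acids, split between Acsl3, which fell, and Acsl1 and Acsl5, which rose slightly. Acsl3 had 49.02, 39.37, 49.23, 43.35 and 42.62 FPKM in tumours 1 to 5, against 58.15, 67.41, 50.43, 49.60 and 53.80 FPKM in adjacent samples 1 to 5. All tumours lay below all adjacent samples, although tumour 3 and adjacent 4 nearly touched, and the change of -0.31 (SE 0.10, limma adjusted p = 0.0133) turned to 0.13 relative to the epithelial markers. Acsl1 had 12.31, 10.06, 11.58, 12.87 and 10.89 FPKM in tumours and 9.18, 8.03, 9.77, 8.02 and 11.78 FPKM in adjacent samples. Adjacent 5 stood within the tumour range. The rise of 0.28 (SE 0.11, limma adjusted p = 0.032) became -0.047 with medians subtracted and -0.065 after quantile normalization, and it did not pass in 6 of the 10 fits that left out a library, those without tumour 1, 3 or 4 or adjacent 1, 2 or 4 (adjusted p = 0.0566 to 0.0790). Acsl5 had 41.83, 50.83, 52.36, 45.01 and 42.64 FPKM in tumours and 42.23, 41.05, 42.19, 38.76 and 38.87 FPKM in adjacent samples, and tumour 1 lay inside the adjacent range. Its rise of 0.19 (SE 0.08, limma adjusted p = 0.0413) became -0.14 with medians subtracted and did not pass in 7 of the 10 fits that left out a library, those without tumour 2, 3 or 4 or adjacent 2, 3, 4 or 5 (adjusted p = 0.0523 to 0.103).

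Of the carnitine acyltransferases, Cpt1a fell to about the level of Cpt2, while Cpt2 did not pass the test. Cpt1a, the rate-limiting enzyme of the outer mitochondrial membrane, had 29.72, 37.40, 27.54, 38.45 and 32.53 FPKM in tumours, against 61.30, 66.37, 64.91, 81.65 and 74.25 FPKM in adjacent samples. The groups lay far apart, with the highest tumour well below the lowest adjacent sample, and the change was -1.05 (SE 0.11, limma adjusted p = 2.5e-05). Cpt2, which remakes acyl-CoA on the inner membrane, had 33.08, 33.37, 39.86, 38.26 and 44.16 FPKM in tumours and 44.06, 30.32, 37.08, 47.38 and 40.83 FPKM in adjacent samples. These groups overlapped almost fully, with a change of -0.07 (95% interval -0.35 to 0.20, limma adjusted p = 0.608) that turned to 0.37 relative to the epithelial markers. The ratio of Cpt1a to Cpt2 was 0.691 to 1.12 in tumours and 1.39 to 2.19 in adjacent samples, a description chosen after the values were seen. Crat, the carnitine acetyltransferase, averaged 9.65 ± 1.49 FPKM in tumours and 14.1 ± 1.67 FPKM in adjacent samples (SD, n = 5 each), and fell by 0.51 on the log2 scale. Relative to the epithelial markers Crat stood at -0.069 and did not pass (limma adjusted p = 0.554).

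Of the 4 acyl-CoA dehydrogenases, which take the first electrons from fatty acids, 3 fell, and Acadl did not pass. Acadm, for medium chains, had 28.35, 26.93, 24.27, 28.65 and 28.79 FPKM in tumours, against 51.77, 48.66, 53.52, 65.61 and 52.68 FPKM in adjacent samples. The tumours stayed in a narrow band below every adjacent sample, and adjacent 4 was high. The change was -0.96 (SE 0.09, limma adjusted p = 1.73e-05). Acads, for short chains, averaged 49.7 ± 2.2 FPKM in tumours and 82.4 ± 16.0 FPKM in adjacent samples, a change of -0.70. Acadvl, for very long chains, averaged 42.8 ± 3.85 FPKM in tumours and 68.4 ± 8.35 FPKM in adjacent samples (SD, n = 5 each), a change of -0.66. Both of these groups were apart without overlap. Relative to the epithelial markers neither gene passed, at -0.255 for Acads (limma adjusted p = 0.0549) and -0.216 for Acadvl (limma adjusted p = 0.0517). Acadl, for long chains, had 83.65, 100.15, 91.89, 91.80 and 72.53 FPKM in tumours and 92.87, 105.38, 96.57, 102.73 and 105.04 FPKM in adjacent samples. Only tumour 2 reached the adjacent range, and the change was -0.20 (95% interval -0.39 to -0.0029, limma adjusted p = 0.0609), 0.25 relative to the epithelial markers and past the threshold without tumour 2 (adjusted p = 0.0198). Acadl stood at 2.52 to 3.79 times Acadm in tumours and 1.57 to 2.17 times in adjacent samples, again described after the values were seen.

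The electron transfer flavoprotein, which passes these electrons on, fell in both subunits, although neither passed relative to the epithelial markers. Etfb had 65.36, 74.22, 68.79, 76.17 and 76.05 FPKM in tumours, against 124.49, 96.65, 114.89, 122.60 and 98.43 FPKM in adjacent samples. No tumour reached the adjacent range, and the change was -0.61 (SE 0.09, limma adjusted p = 0.000123). Etfa averaged 57.7 ± 6.53 FPKM in tumours and 87.3 ± 9.06 FPKM in adjacent samples, a change of -0.59, close to that of its partner. Etfdh, which hands the electrons to ubiquinone, averaged 26.6 ± 1.57 FPKM in tumours and 35.9 ± 2.4 FPKM in adjacent samples (SD, n = 5 each). It fell by 0.42 on the log2 scale, and stood at 0.024 relative to the epithelial markers.

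**Figure D2:**
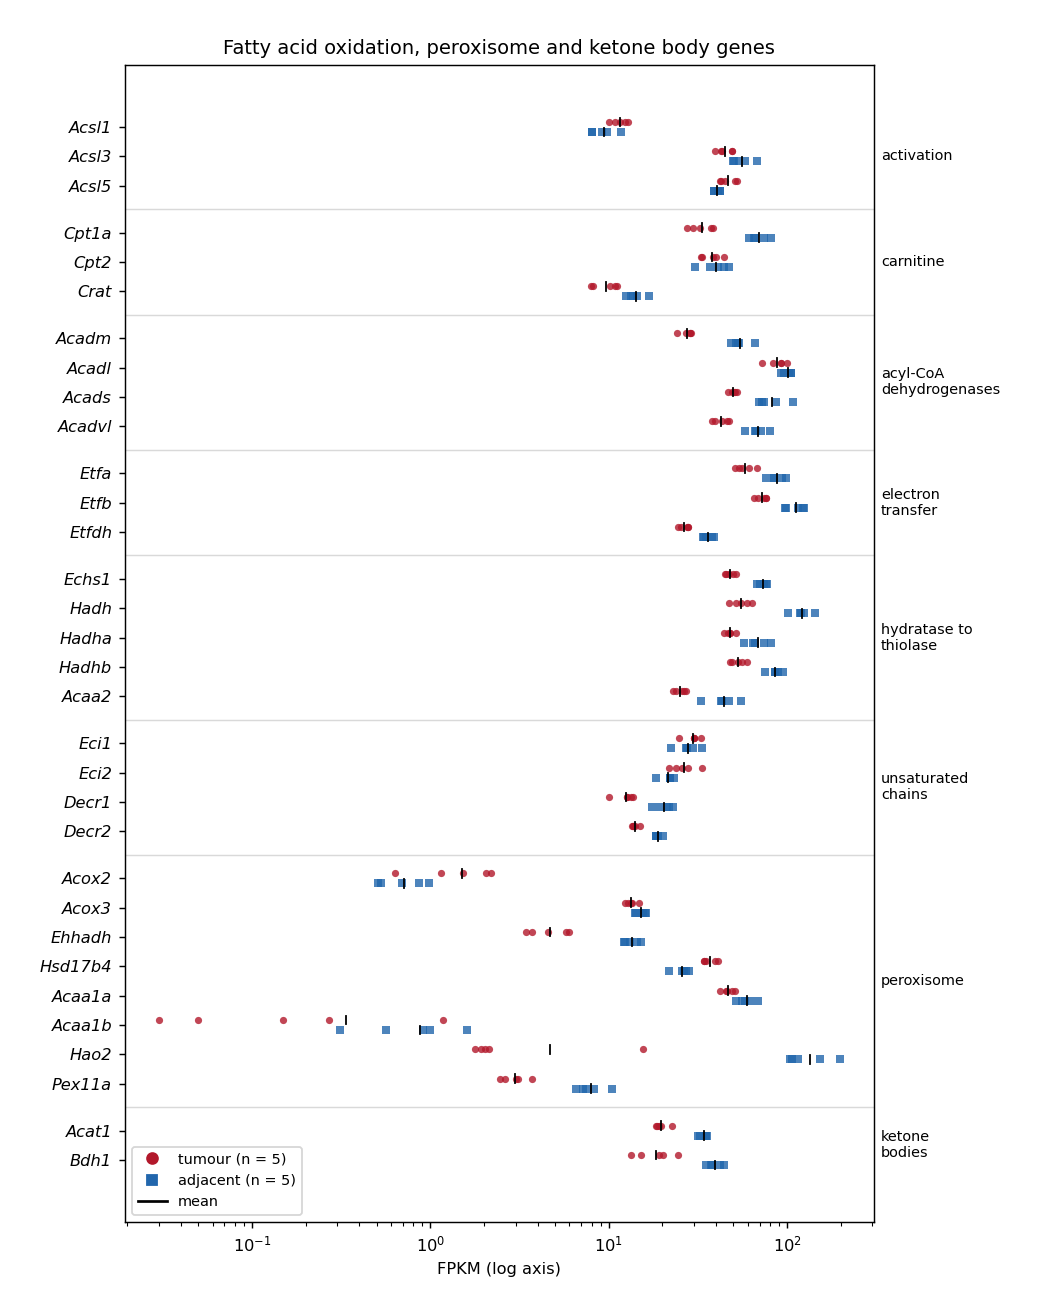
Red circles are the 5 tumours and blue squares the 5 adjacent samples for each member, on a log axis of FPKM, with black bars at the group means and members ordered by role. For 23 members the groups do not overlap, with tumours lower in 22 of them and higher for Hsd17b4. Of all tested genes 60.9% do not overlap, 14.3% with tumours lower and 46.5% with tumours higher.

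All 5 genes of the hydration, second dehydrogenation and thiolysis steps fell, without overlap between groups, and Hadh, Hadhb and Acaa2 also fell relative to the epithelial markers. Hadh, the mitochondrial hydroxyacyl-CoA dehydrogenase, had 47.04, 55.20, 51.98, 63.36 and 59.30 FPKM in tumours, against 118.14, 100.74, 119.12, 143.72 and 123.57 FPKM in adjacent samples. Even the lowest adjacent sample stood well above the highest tumour, and the change was -1.11 (SE 0.11, limma adjusted p = 1.92e-05). The subunits of the trifunctional protein, whose shared upstream stretch is printed above, both fell. Hadha averaged 47.7 ± 2.73 FPKM in tumours and 68.8 ± 9.39 FPKM in adjacent samples, a change of -0.51. Hadhb averaged 53.0 ± 4.72 FPKM in tumours and 85.8 ± 7.11 FPKM in adjacent samples, a change of -0.68. Echs1, the short-chain hydratase, averaged 47.7 ± 2.86 FPKM in tumours and 73.2 ± 3.89 FPKM in adjacent samples, and fell by 0.61 on the log2 scale. Acaa2, the mitochondrial thiolase, averaged 25.1 ± 1.78 FPKM in tumours and 44.2 ± 8.02 FPKM in adjacent samples (SD, n = 5 each), and fell by 0.77 on the log2 scale.

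Among the auxiliary enzymes for unsaturated chains, both dienoyl-CoA reductases fell, though not relative to the epithelial markers, and neither enoyl-CoA isomerase fell except Eci1 with medians subtracted. Decr1, the mitochondrial reductase, had 10.08, 13.29, 13.60, 12.64 and 12.67 FPKM in tumours, against 21.24, 19.26, 21.69, 22.79 and 17.41 FPKM in adjacent samples. Tumour 1 was the lowest, no tumour reached the adjacent range, and the change was -0.68 (SE 0.10, limma adjusted p = 0.00011). Decr2, the peroxisomal reductase, averaged 14.0 ± 0.557 FPKM in tumours and 18.8 ± 0.728 FPKM in adjacent samples (SD, n = 5 each), a change of -0.41 that stood at 0.038 relative to the epithelial markers. Eci1, a mitochondrial isomerase, had 29.91, 24.72, 30.03, 32.72 and 30.14 FPKM in tumours and 27.07, 22.22, 29.68, 33.21 and 27.31 FPKM in adjacent samples. Its groups overlapped throughout, with a change of 0.08 (95% interval -0.15 to 0.32, limma adjusted p = 0.485) that became -0.25 with medians subtracted. Eci2, an isomerase of mitochondria and peroxisomes, had 33.43, 21.75, 27.86, 23.92 and 25.63 FPKM in tumours and 21.97, 18.29, 22.01, 22.06 and 23.26 FPKM in adjacent samples. Tumour 2 lay in the adjacent range. The rise of 0.28 (SE 0.11, limma adjusted p = 0.0382) became -0.052 with medians subtracted and did not pass in 7 of the 10 fits that left out a library, those without tumour 1, 3 or 5 or adjacent 1, 2, 3 or 4 (adjusted p = 0.0567 to 0.0917).

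The peroxisomal genes held both the largest fall of the set and its only rise without overlap between groups. Hao2, at chr3:98874521-98893239 on the minus strand, encodes a peroxisomal oxidase of hydroxy acids. It had 2.13, 2.01, 1.78, 15.54 and 1.93 FPKM in tumours, against 152.52, 106.63, 114.56, 196.73 and 103.16 FPKM in adjacent samples. All tumours were far below all adjacent samples, and tumour 4 stood above the other tumours. The change was -4.98 (SE 0.47, limma adjusted p = 2.11e-05), 31.5-fold lower on the log2(FPKM + 1) scale and the 10th largest fall of all tested genes. Without Hao2 the members' sum was still 970.75 to 1047.1 FPKM in tumours and 1310.8 to 1622.2 FPKM in adjacent samples. Markers of surface colonocytes, the list with the lowest median change, were highest in tumours 2 and 4, with a mean log2 level of 5.25 and 4.94. Hao2 had 2.01 FPKM in tumour 2 and 15.54 FPKM in tumour 4. The part of these markers in the fall of Hao2 was not tested.

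The bifunctional enzymes of peroxisomal oxidation, which work through opposite stereoisomers, went opposite ways. Ehhadh, the L-bifunctional enzyme, had 4.55, 5.98, 3.45, 5.76 and 3.73 FPKM in tumours, against 12.27, 12.16, 13.23, 14.39 and 15.08 FPKM in adjacent samples. Every tumour was lower than every adjacent sample, and the change was -1.36 (SE 0.13, limma adjusted p = 2.17e-05). Hsd17b4, the D-bifunctional enzyme, had 39.33, 34.85, 34.36, 34.31 and 40.99 FPKM in tumours, against 28.12, 21.83, 25.85, 26.46 and 27.10 FPKM in adjacent samples. Here every tumour was higher, with a change of 0.49 (SE 0.08, limma adjusted p = 0.000316) that was 0.16 and did not pass (adjusted p = 0.0637) with medians subtracted. The ratio of Hsd17b4 to Ehhadh in FPKM as deposited does not change with a common factor per library, though quantile normalization could change it. This ratio was 8.28 ± 2.33 in tumours, from 5.83 to 11.0. In adjacent samples it was 1.94 ± 0.21, from 1.80 to 2.29 (SD, n = 5 each). It was computed after the values were seen and was not tested.

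**Figure D3:**
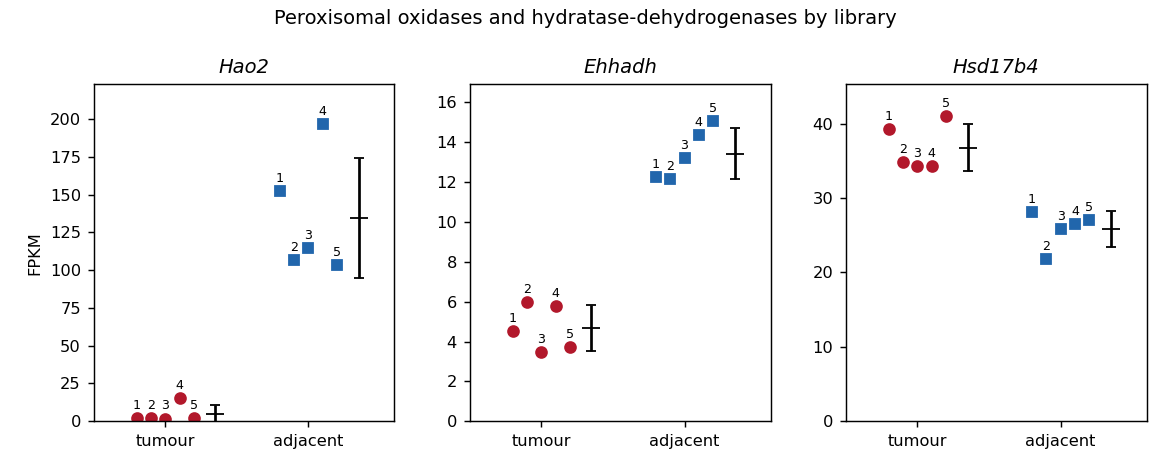
Numbered points give FPKM of Hao2, Ehhadh and Hsd17b4 in each of the 5 tumours (red) and 5 adjacent samples (blue) on linear axes from 0, with black bars for mean ± SD. Hao2 and Ehhadh are lower in all 5 tumours and Hsd17b4 is higher in all 5, and tumour 4 stands above the other tumours for Hao2.

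The other peroxisomal members held 3 falls and 1 rise, besides Acaa1b, which was not tested. Pex11a, a membrane protein of peroxisome division, averaged 2.97 ± 0.485 FPKM in tumours and 7.98 ± 1.5 FPKM in adjacent samples, a change of -1.17 without overlap. Acaa1a, the peroxisomal thiolase, averaged 46.7 ± 3.54 FPKM in tumours and 59.4 ± 6.24 FPKM in adjacent samples (SD, n = 5 each). It fell by 0.34 on the log2 scale, and stood at 0.11 relative to the epithelial markers. Its near-identical copy Acaa1b had 0.03, 1.17, 0.05, 0.15 and 0.27 FPKM in tumours and 1.61, 0.31, 0.91, 1.00 and 0.56 FPKM in adjacent samples. Acaa1b was below the filter and was not tested, and no source used here states how reads were split between both copies, so the values of either are uncertain. Acox2 and Acox3 encode oxidases for branched chains. Acox2 had 0.63, 2.04, 1.53, 1.14 and 2.19 FPKM in tumours and 0.98, 0.51, 0.86, 0.53 and 0.69 FPKM in adjacent samples. Tumour 1 lay in the adjacent range, and the rise of 0.51 (SE 0.18, limma adjusted p = 0.0251) was 0.18 and did not pass with medians subtracted (adjusted p = 0.388). It did not pass in 4 of the 10 fits that left out a library, those without tumour 2 or 5 or adjacent 2 or 4 (adjusted p = 0.0535 to 0.062). Acox3 averaged 13.3 ± 0.893 FPKM in tumours and 15.2 ± 1.0 FPKM in adjacent samples (SD, n = 5 each), with overlap. Its change of -0.18 (limma adjusted p = 0.0357) was 0.27 relative to the epithelial markers, and it did not pass in 6 of the 10 fits that left out a library, those without tumour 3, 4 or 5 or adjacent 2, 3 or 5 (adjusted p = 0.0636 to 0.0858).

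Both ketone body members fell, under all alternatives run. Bdh1, which interconverts acetoacetate and 3-hydroxybutyrate, had 19.08, 24.46, 15.12, 20.16 and 13.39 FPKM in tumours, against 42.26, 35.11, 37.80, 44.02 and 37.29 FPKM in adjacent samples. The groups did not overlap, and the change was -1.08 (SE 0.14, limma adjusted p = 7.57e-05). Acat1, the mitochondrial acetoacetyl-CoA thiolase, had 18.51, 22.75, 19.06, 19.60 and 18.66 FPKM in tumours, against 35.11, 32.62, 35.28, 35.51 and 31.44 FPKM in adjacent samples. Tumour 2 was above the other tumours but far below the adjacent range, and the change was -0.76 (SE 0.07, limma adjusted p = 1.88e-05).

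The 8 other tested genes of ketone body metabolism split into 5 that fell and 3 that rose, with a median change of -0.62 against 0.35 for all genes, and into 3 falls and 3 rises relative to the epithelial markers. Over all tested genes 19.3% fell and 57.2% rose, and relative to the epithelial markers 9.35% and 77.6%. Slc16a1, a monocarboxylate transporter that also carries butyrate, averaged 14.9 ± 5.16 FPKM in tumours and 66.1 ± 11.9 FPKM in adjacent samples (SD, n = 5 each), a change of -2.12. Oxct1, the enzyme that starts ketone body use and chosen after its values were seen, changed by -0.86. Hmgcll1 rose by 1.32 and Slc16a6 by 0.67 on the log2 scale, and Slc16a6 did not pass after quantile normalization (0.19, limma adjusted p = 0.0694).

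Of 27 other tested genes of fatty acid oxidation and related acyl-CoA metabolism, 17 fell, 3 rose and 7 did not pass. Their median change was -0.38 (22 fell and 2 rose with medians subtracted, 9 each relative to the epithelial markers). The list also holds genes of amino acid and propionate breakdown, such as Ivd and Pcca. Mlycd is counted among the peroxisomal enzymes as well, and Acsl4 also under fatty acid synthesis. Acsm3, a medium-chain acyl-CoA synthetase, changed by -2.87 and Acad11 by -1.81, while Acsl4, a synthetase that prefers arachidonate, rose by 1.48 and Cpt1c by 1.26 on the log2 scale. Slc25a20, the carnitine carrier between both carnitine palmitoyltransferases, averaged 37.5 ± 18.7 FPKM in tumours and 117 ± 6.54 FPKM in adjacent samples (SD, n = 5 each), a change of -1.73, and was chosen after its values were seen. Of 33 other tested peroxisomal enzymes and membrane proteins, 17 fell, 8 rose and 8 did not pass, with a median change of -0.27, and 15 rose and 8 fell relative to the epithelial markers. Ephx2 changed by -1.92, and Gnpat, which starts plasmalogen synthesis, rose by 0.70 on the log2 scale. Mpv17, counted in this list although its membrane protein is held to be mitochondrial, rose by 0.63. Peroxins, the proteins that build peroxisomes, were counted together with the division genes Fis1, Mff and Dnm1l, and this list had a median change of 0.12. Of these 18, 3 fell, 7 rose, Mff among them (0.35), and 8 did not pass. With medians subtracted 10 fell and 1 rose, and 17 rose relative to the epithelial markers. Of all tested genes 19.3% fell and 57.2% rose, with medians subtracted 33.3% and 34.5%, and relative to the epithelial markers 9.35% and 77.6%. The falls of the peroxin list, 16.7%, were thus near the share of all genes, and its rises, 38.9%, were below it. Pex26 rose by 0.59 on the log2 scale, while Pex16 changed by -0.33 and Pex7 by -0.21, which became 0.11 and 0.24 relative to the epithelial markers. Pex7 did not pass without tumour 5 or adjacent 3 (limma adjusted p = 0.0515 to 0.0609).

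**Figure D4:**
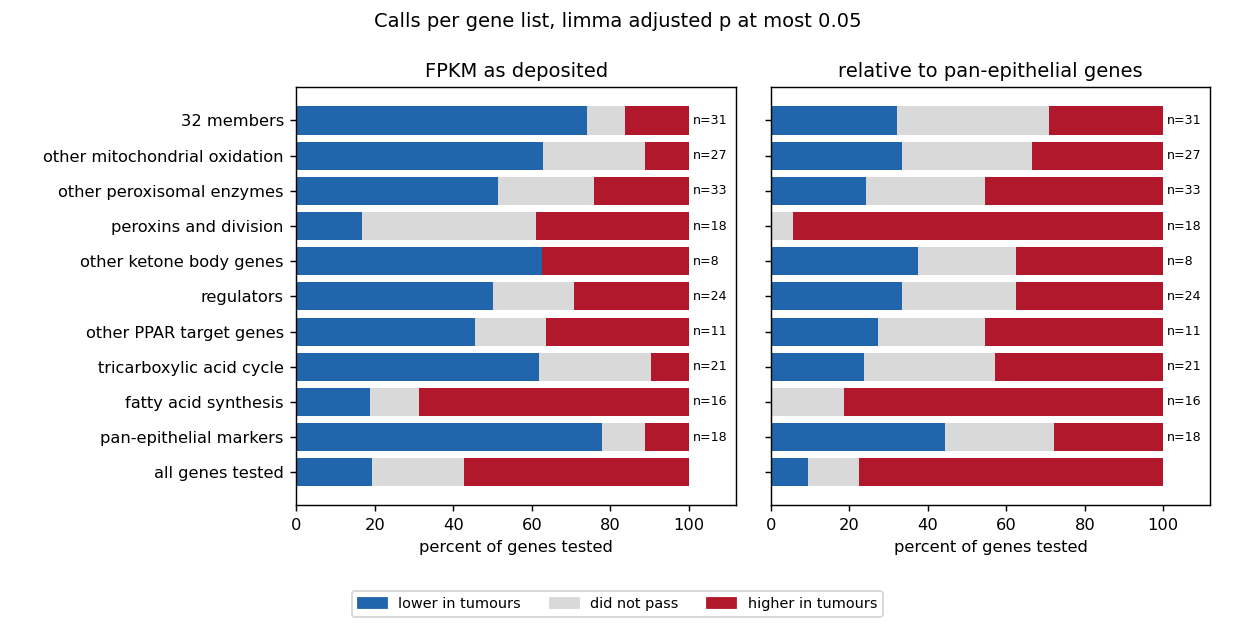
Bars give the percentage of tested genes in each list that were lower (blue), did not pass (grey) or were higher (red) in tumours, for FPKM as deposited on the left and relative to the pan-epithelial markers on the right. On the left 23 of 31 members were lower and 5 higher, and on the right 10 were lower and 9 higher, while 57.2% and 77.6% of all genes were higher.

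Of 24 tested regulators of these genes, 12 fell, 7 rose and 5 did not pass, with a median change of -0.52 (14 fell and 1 rose with medians subtracted, 8 fell and 9 rose relative to the epithelial markers). Over all tested genes 19.3% fell and 57.2% rose. With medians subtracted 33.3% of all genes fell and 34.5% rose, and relative to the epithelial markers 9.35% and 77.6%. Prkaa2, a catalytic subunit of the AMP-activated kinase, changed by -2.33 and Ppargc1b, a coactivator, by -1.93. Lpin1, a phosphatidate phosphatase, rose by 0.53 on the log2 scale, but did not pass with medians subtracted (0.19) or after quantile normalization (0.013). The PPAR genes, chosen after their values were seen, changed by -0.96 for Ppara, -1.33 for Ppard and -1.36 for Pparg. Hnf4a, an intestinal transcription factor chosen in the same way, averaged 95.6 ± 26.2 FPKM in tumours and 227 ± 20.5 FPKM in adjacent samples (SD, n = 5 each), a change of -1.27. Known PPAR targets, some of them also in another list, did not move one way. Of 11 tested, 5 fell, 4 rose and 2 did not pass (3 falls and 5 rises relative to the epithelial markers). Among them Fabp2 changed by -4.63 and Txnip by -1.27. Fabp2 is also a marker of proximal small intestine, a list of which all 4 tested genes fell. That list summed to 1.76 to 15.09 FPKM in tumours and 53.36 to 200.58 FPKM in adjacent samples. Acot1, an acyl-CoA thioesterase, changed by 1.02, and Angptl4, a lipase inhibitor, averaged 5.99 ± 0.669 FPKM in tumours and 0.908 ± 0.557 FPKM in adjacent samples, a change of 1.91.

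Among the neighbouring pathways, of 21 genes of the tricarboxylic acid cycle, 13 fell, 2 rose and 6 did not pass, with a median change of -0.36, 19 falls and 0 rises with medians subtracted (by limma's adjusted p, and also 0 rises at an unadjusted p under 0.05), and 5 falls and 9 rises relative to the epithelial markers. Suclg2 changed by -1.04 and citrate synthase, Cs, by -0.90, while Idh2 rose by 0.69 and Idh3a by 0.48 on the log2 scale. With medians subtracted neither rise passed, at 0.36 for Idh2 (limma adjusted p = 0.0763) and 0.15 for Idh3a (limma adjusted p = 0.325). Of 16 genes of fatty acid synthesis and desaturation, 11 rose, 3 fell and 2 did not pass, with a median change of 0.51 (8 rose and 4 fell with medians subtracted). Relative to the epithelial markers 13 rose and 0 fell, by limma's adjusted p and also at an unadjusted p under 0.05. Of all tested genes 57.2% rose and 19.3% fell. With medians subtracted 34.5% of all genes rose and 33.3% fell, and relative to the epithelial markers 77.6% and 9.35%. In the list of fatty acid synthesis the rises were 68.8%, 50% and 81.2% in the same order. The elongases Elovl6 and Elovl7 changed by -0.62 and -0.50, and by -0.18 and -0.057 relative to the epithelial markers, where neither passed. Fads1, a desaturase, averaged 46.3 ± 9.66 FPKM in tumours and 10.2 ± 2.96 FPKM in adjacent samples (SD, n = 5 each), a change of 2.10.

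Within groups the libraries were not alike for these genes. The mean of the members' log2(FPKM + 1) was 4.41 to 4.61 in tumours and 4.95 to 5.25 in adjacent samples. Adjacent 4 was the highest adjacent sample for 20 of the 32 members and adjacent 2 the lowest for 20. Among the tumours, tumour 4 was the highest for 11 and tumour 2 for 9, while tumour 3 was the lowest for 11 and tumour 1 for 9. Pan-epithelial markers had a mean log2 level of 7.08 to 7.24 in tumours and 7.56 to 7.69 in adjacent samples, a narrower gap than that of surface colonocyte markers, at 3.34 to 5.25 in tumours and 7.19 to 7.75 in adjacent samples. Adipocyte markers, from another cell type that oxidises and stores fat, summed to only 0.34 to 2.39 FPKM in tumours and 1.82 to 3.85 FPKM in adjacent samples.

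**Figure D5:**
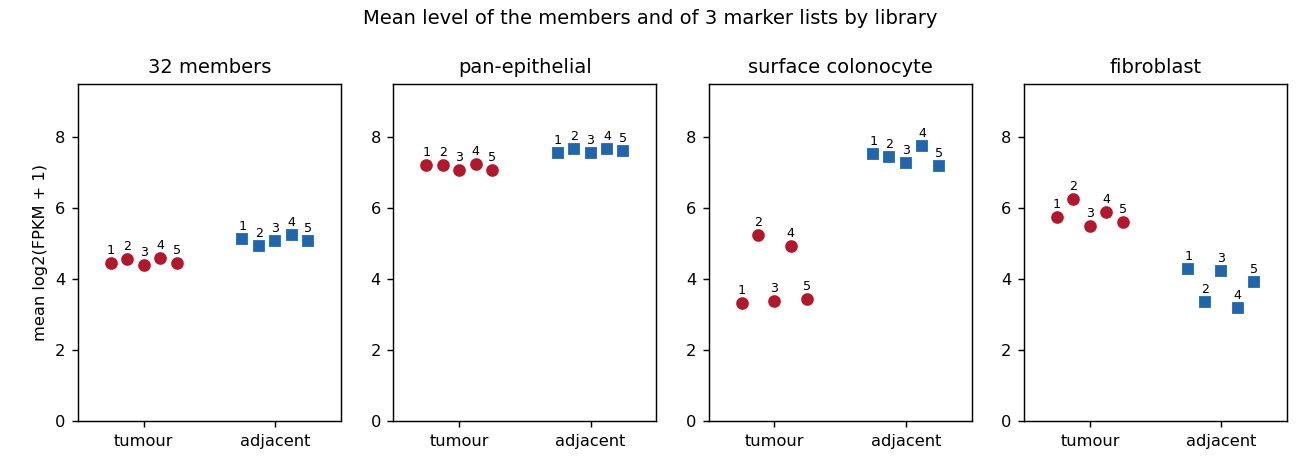
Numbered points give the mean log2(FPKM + 1) of the 32 members and of the pan-epithelial, surface colonocyte and fibroblast markers in each of the 5 tumours (red) and 5 adjacent samples (blue). All tumours lie below all adjacent samples for the first 3 lists and above them for fibroblast markers, and tumours 2 and 4 are the highest tumours for surface colonocyte markers.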

How the data were processed

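Polyadenylated RNA was selected with oligo-dT, and libraries were made with a TruSeq kit and sequenced on an Illumina HiSeq, per the labels' protocols. The authors deposited FPKM, normalized to transcript length and total mapped fragments, for each gene and library. The submitters' processing notes list, with no roles, the build mm10, the aligner TopHat2 2.1.0, the quantifiers Salmon 0.8.2, RSEM 1.2.15 and Cufflinks 2.2.1, the packages DESeq2 1.14.1 and edgeR 3.16.5, and GATK. Which of them made the table is not given in the sources used. Because FPKM is relative to the library's total, a gene's value can move when others do. The 1 text line in the table was left out, and the series' protein data were not used. No library was a copy of another, with at least 17741 genes differing between any 2. Depth is not in the table and was estimated roughly from the steps between low values. No counting interval was computed.

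Values were taken as log2(FPKM + 1), and genes averaging 1 FPKM or more across the 10 libraries, 13016 in all, entered a limma 3.58.1 fit (R 4.3.3). The model held group alone, and variances were moderated by empirical Bayes, robustly and with a trend on intensity. Two-sided p-values were adjusted by Benjamini-Hochberg over these genes, with a threshold of 0.05. The fit was tested on simulated data. Alternatives were pseudocounts of 0.1 and 5, no filter, a mean of at least 5 FPKM, medians subtracted, quantile normalization, values relative to the mean of the pan-epithelial markers, no trend, a replicate block and leaving out each library. The members and lists were chosen with earlier results of these data known. Per-library values were given to the highest member and the most changed member of each role and to those that rose or did not pass. From each pathway list up to 2 of the largest falls and 2 of the largest rises that passed were named. Some genes of the lists entered the counts but are not reported here by name. Others were chosen after their values were seen. Coordinates and promoters are of GRCm38, from GENCODE M21 and RefSeq.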

Additional observations from a re-analysis of the deposited data

Results flagged for a closer look

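For 6 of 68 groups of 5 libraries, the end value stood apart from the other 4 by more than 0.71 of the group's range, the limit at which chance picks about 1 in 20 groups. Tumour 4 had 15.54 FPKM of Hao2, against 1.78 to 2.13 FPKM in the other tumours. Tumour 2 had 22.75 FPKM of Acat1, against 18.51 to 19.6 FPKM in the other tumours, and 1.17 FPKM of Acaa1b, against 0.03 to 0.27 FPKM. Tumour 1 had 10.08 FPKM of Decr1, against 12.64 to 13.6 FPKM in the other tumours. Adjacent 4 had 65.61 FPKM of Acadm, against 48.66 to 53.52 FPKM in the other adjacent samples. Adjacent 2 had 18.29 FPKM of Eci2, against 21.97 to 23.26 FPKM in the other adjacent samples.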

How the results depend on the processing

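Relative to the pan-epithelial markers, 10 members fell and 9 rose, and 1217 of all genes fell. The number of members that rose was 3 with no filter, 1 after quantile normalization and 0 by limma's adjusted p with medians subtracted (1 at an unadjusted p under 0.05). Over all genes, 4329 fell and 4486 rose with medians subtracted, and 3934 fell and 4759 rose after quantile normalization. Leaving out each library, 22 to 24 members fell, 1 to 4 rose and 23 to 27 passed in all, while over all genes 2324 to 2605 fell, 7063 to 7625 rose and 9423 to 10230 passed. Directions turned with medians subtracted for Acsl1 (-0.047), Acsl5 (-0.14), Eci1 (-0.25) and Eci2 (-0.052), and after quantile normalization for Acsl1 (-0.065). Relative to the epithelial markers they turned for Acsl3 (0.13), Cpt2 (0.37), Acadl (0.25), Etfdh (0.024), Decr2 (0.038), Acox3 (0.27), Acaa1a (0.11), Pex16 (0.11) and Pex7 (0.24). The cause was not tested. Libraries with the same number had correlations of 0.022 to 0.422 in their deviations, and 2 of the 5 tumours correlated best with their own number. These values cannot decide whether the numbers are pairs. Because the labels give the same mouse for all libraries, the numbers were not taken as pairs in the main fit. With the replicate block, 22 members fell and 4 rose, and 2533 of all genes fell and 7534 rose; Acox2 (adjusted p = 0.0544) and Acox3 (adjusted p = 0.0593) did not pass. With 5 libraries a group and no counts, small changes of low genes such as Acox2 and Acaa1b are the least certain.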
